A study of Mus musculus with 24 samples.

Results

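The retina of 129S1/Svlmj mice was compared with the retina of 4 other classical inbred strains, C57BL/6J, NOD/ShiLtJ, A/J and NZO/HlLtJ. The members were the 3 libraries that the labels assign to 129S1/Svlmj, of 24 libraries in the series, and the comparison group was the 12 libraries of the 4 other strains, 3 from each. Each library held RNA of the retina of a mouse at postnatal day 28, measured by RNA sequencing of total RNA. The labels call every mouse wild type, name no treatment and do not give the sex. The other 9 libraries came from the wild-derived strains CAST/EiJ, PWK/PhJ and WSB/EiJ and are used below only to place single genes.

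Every group is 1 inbred strain, so the error within a group is the spread between 3 libraries of that strain, and nothing in these data repeats the strain itself. Values are given in cpm, the reads of a gene scaled to the total reads of its library. The smallest step between low values gave totals of 59421000 to 78150000 reads for the 15 libraries, with 61529000, 76306000 and 62648000 for 129S1/Svlmj replicates 1, 2 and 3. A level of 3 reads corresponds to 0.0384 to 0.0505 cpm, and values below it are at the limit of counting. Across the genes tested, the log2 values of the 129S1/Svlmj libraries correlated with each other at r = 0.9899 to 0.9948, and with the libraries of the other strains at 0.9747 to 0.9836. No pair of the 15 libraries held identical values.

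The mature retina converts light into a neural signal in rod and cone photoreceptors, and in mice rods far outnumber all other cell types. Photoreceptors hand the signal to bipolar cells, which are shaped by horizontal and amacrine cells and drive the ganglion cells whose axons form the optic nerve. Müller glia span the tissue, and microglia are its resident immune cells. Inbred strains differ at many loci, and transcript levels in a tissue can therefore differ between them from gene to gene.

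Markers of retinal cells were present in all 15 libraries. Gnat1, a transducin subunit of rods, lay between 1750 and 1860 cpm in 129S1/Svlmj and between 1700 and 2600 cpm in the other strains. Markers of bipolar cells (Grm6, 18.4 to 23 cpm in 129S1/Svlmj), of ganglion cells (Slc17a6, 20.8 to 23.1 cpm) and of Müller glia (Glul, 637 to 716 cpm) were present as well. These are bulk values, and fewer cells of a type and less RNA per cell cannot be told apart. The label of A/J was checked with Dysf, which carries an insertion in that strain. It was at 0.0633 to 0.113 cpm in the 3 A/J libraries and at 0.381 to 0.717 cpm in the other 12 libraries. Nnt, part of which is deleted in C57BL/6J, was at 4.72 to 4.93 cpm in C57BL/6J and at 3.25 to 4.12 cpm in 129S1/Svlmj, so its total over the whole gene does not check that label. Casp4 was at no more than 0.0719 cpm in any of the 15 libraries and checks nothing. Tyr, which encodes the enzyme that makes melanin, was at 1.39 to 1.70 cpm in 129S1/Svlmj and 0.408 to 1.88 cpm in the other strains, with q = 0.0292.

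Some libraries stood apart for reasons that the labels do not give. A list of 20 lens genes, led by the crystallin Cryaa, summed to 2010 cpm in 129S1/Svlmj replicate 2, 278 cpm in C57BL/6J replicate 2 and 2440 cpm in NOD/ShiLtJ replicate 2. The same sum was 74.6 and 46.0 cpm in 129S1/Svlmj replicates 1 and 3, and between 8.20 and 67.7 cpm in the other 10 libraries of the comparison. Lens RNA was therefore highest in those 3 libraries, and it was also higher in the remaining 129S1/Svlmj libraries than in most of the remaining others. Xist, which is transcribed from an inactive X chromosome, was at 962 cpm in 129S1/Svlmj replicate 3 and 906 cpm in C57BL/6J replicate 3 and at most 3.12 cpm in the other 13. The Y-linked gene Ddx3y was at 0 and 0.118 cpm in those same 2 libraries and between 28.4 and 35.2 cpm in the rest. Genes of chromosomes X and Y were left out of the comparison, and what changed without the 3 libraries with the most lens RNA is given below for the counts, for genes no longer set apart and for the gene lists that differed most.

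Of 28802 genes, the 15811 on the autosomes or the mitochondrial genome with a mean of at least 0.5 cpm over the 15 libraries were tested. Against the mean of the 4 other strains, 1380 genes (8.73%) were higher in 129S1/Svlmj and 1524 (9.64%) were lower at a q-value under 0.01. Most of these differences were small, with a median of 0.29 on the log2(cpm + 1) scale, and 111 of the 2904 exceeded 1 on that scale. Against single strains, in either direction, 2182 genes (13.8%) differed from C57BL/6J, 2740 (17.3%) from NOD/ShiLtJ, 3311 (20.9%) from A/J and 2257 (14.3%) from NZO/HlLtJ. These 4 comparisons share the 129S1/Svlmj libraries. Genes that differed from each of the 4 strains in the same direction are called set apart below. There were 206 of them higher in 129S1/Svlmj (1.30%) and 210 lower (1.33%). All 206 higher and 209 of the 210 lower genes had no overlap between the 3 and the 12 libraries, against 1007 of all 15811 genes tested. A lack of overlap reported below for a gene set apart therefore comes with the rule that chose it and adds no further support. The same rule set apart 403 genes in C57BL/6J, 406 in NOD/ShiLtJ, 371 in A/J and 383 in NZO/HlLtJ, so the 416 of 129S1/Svlmj are a number of the same order as in any of the 5 strains. The difference between these counts was not tested.

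Counts depended on what was taken as the replicate. With 3 libraries set against 12 as 2 groups, 512 genes passed against the mean, and with 1 value for each strain, 1 against 4, only 9 did. Without 129S1/Svlmj replicate 1, 1239 genes were higher and 982 lower, and with quantile normalization 1600 and 1527, so which direction held more genes depended on the setting. Of the 9 genes that passed with 1 value for each strain, 7 were higher, among them Trhde, Klk1b22, Gdpd3 and the pseudogenes Gm10020, Gm45315 and Rpl15-ps2, and the pseudogenes Gm4735 and Rps13-ps2 were lower. Klk1b22, Gdpd3, Gm10020, Gm45315 and Rpl15-ps2 passed the filter on low values only through 129S1/Svlmj, so they had to differ once they were tested. Without the 3 libraries with the most lens RNA, 1043 genes were higher and 1817 lower, 36.5% of calls being higher in place of 47.5%, and 156 and 216 were set apart. Of the original genes, 2280 of 2904 and 306 of 416 kept their call there. Without 129S1/Svlmj replicate 3, the library with high Xist, 1836 genes passed against the mean and 322 were set apart.

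Among the protein-coding genes with the widest gap above the nearest other strain were genes that were near 0 elsewhere. Klk1b22 (chromosome 7, 44112673 to 44116922, GRCm38), a secreted serine protease of the kallikrein 1-related family, was at 2.75, 3.56 and 3.86 cpm in 129S1/Svlmj replicates 1, 2 and 3, the order kept below, and was listed at 0 in all 12 other libraries, and in all 9 wild-derived ones. It shares 13.3% of its 50-base stretches with other genes, most often with its relative Klk1b16. Gdpd3 (chromosome 7, 126766334 to 126775649), a phospholipase of the glycerophosphodiesterase family, stood at 3.84, 5.57 and 5.47 cpm, against 0.194, 0.361 and 0.460 cpm as the lowest, median and highest of the others. No value of either gene overlapped between 129S1/Svlmj and the other strains. The differences on the log2(cpm + 1) scale were 2.13 (SE 0.06) for Klk1b22 and 2.14 (SE 0.07) for Gdpd3. Both genes passed the filter on low values only through 129S1/Svlmj, so no q-value is given for them.

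Trhde (chromosome 10, 114398823 to 114802307) encodes the membrane enzyme that degrades thyrotropin-releasing hormone. Its values were 41.6, 39.9 and 41.5 cpm in 129S1/Svlmj, and 7.25, 8.01 and 9.44 cpm as the lowest, median and highest elsewhere. The 3 libraries differed little among themselves and were 5.09 times the mean of the other strains. The log2 difference was 2.22 (SE 0.05, largest pairwise q = 7.65e-14), and Trhde was between 7.50 and 9.33 cpm in the means of the 3 wild-derived strains. Stard13 (chromosome 5, 151037510 to 151233836), a protein that activates the hydrolysis of GTP by small GTPases, was at 9.52, 11 and 9.63 cpm against 2.02, 2.66 and 2.98 cpm. All 3 libraries were well above the highest of the 12 others, at 3.84 times their mean, with a log2 difference of 1.61 (SE 0.07, largest pairwise q = 1.67e-09).

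Serpina3n, a protease inhibitor that rises in reactive glia, was at 6.26, 7.01 and 5.97 cpm in 129S1/Svlmj. The lowest, median and highest of the other libraries were 0.220, 1.11 and 2.66 cpm, and the strain means ran from 0.379 cpm in NZO/HlLtJ to 2.47 cpm in NOD/ShiLtJ. The groups did not overlap, but the other strains were spread widely. With 1 value for each strain, 129S1/Svlmj has no spread of its own, and most named genes, Serpina3n among them, did not pass. Of 23 tested genes on a list of Müller glia and gliosis genes, 2 were higher, Serpina3n and the potassium channel gene Kcnj10, and 1 was lower, Stat3. Kcnj10 did not pass without the 3 libraries with the most lens RNA or without C57BL/6J (0.215 and 0.0634 in place of 0.309), while Serpina3n passed in both. The median difference of that list was -0.07, against -0.01 for all genes tested.

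Further genes of this group were Uaca (22.3, 28.6 and 25.6 cpm, against 10.2 to 13.1 cpm), Lama3, which encodes a laminin chain of basement membranes (5.22, 5.78 and 5.49 cpm, against 1.12 to 2.61 cpm), and Rab37, a small GTPase of secretory vesicles (4.00, 3.59 and 4.60 cpm, against 0.577 to 1.67 cpm). Wdr63, a component of the dynein motors of motile cilia, was at 3.77, 3.84 and 3.80 cpm against 0.518 to 1.37 cpm, and Filip1 at 4.26, 5.44 and 5.52 cpm against 1.91 to 2.43 cpm. Slc6a20a, a proline transporter that is also on the list of pigment epithelium genes, was at 2.97, 2.94 and 2.91 cpm against 0.305 to 1.99 cpm. In A/J it rose from 0.340 and 1.10 to 1.99 cpm in replicates 1, 2 and 3, and the summed pigment epithelium markers Rpe65, Lrat and Best1 rose with it, at 3.09, 8.89 and 14.6 cpm. That sum was 6.84, 7.01 and 5.70 cpm in 129S1/Svlmj, where Rpe65 was the most abundant of the 3 (3.71, 3.76 and 3.13 cpm), 5.02, 2.94 and 5.23 cpm in C57BL/6J, 4.91, 3.37 and 3.56 cpm in NOD/ShiLtJ, and 3.05, 5.19 and 3.09 cpm in NZO/HlLtJ. The part of pigment epithelium in the values of Slc6a20a was not tested, and 15.3% of its 50-base stretches also occur in Slc6a20b. For each of these 6 genes the ranges given are those of the 12 other libraries, and the 3 libraries of 129S1/Svlmj lay above them. The log2 differences lay between 0.96 for Filip1 and 1.33 for Rab37, and the largest pairwise q-value was 5.92e-04 for Slc6a20a. Among the wild-derived strains, Uaca was higher in CAST/EiJ (mean 30.2 cpm) and Lama3 in PWK/PhJ (9.12 cpm) than the mean of 129S1/Svlmj.

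**Figure D1:**
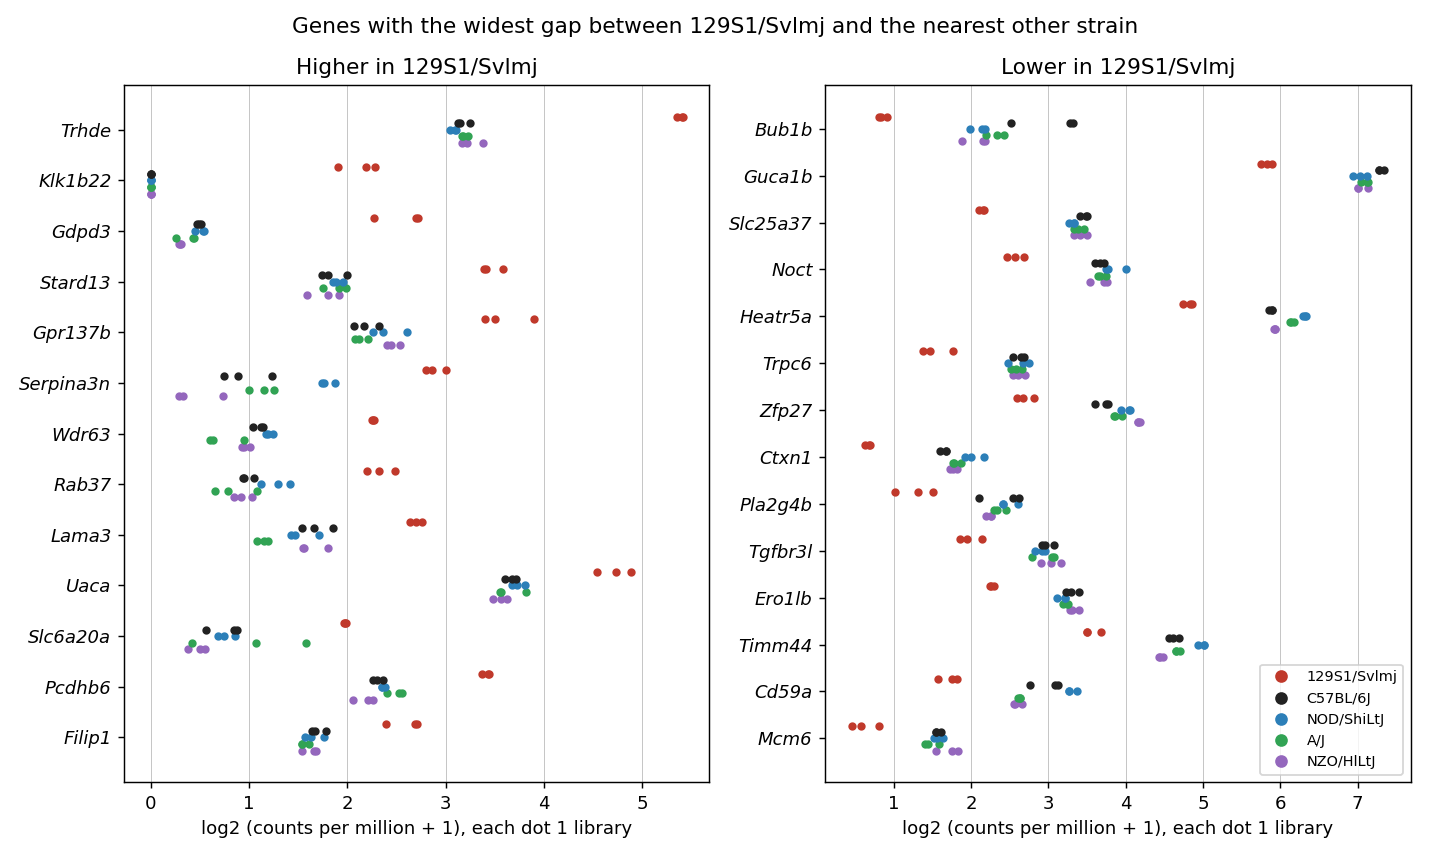
Each dot is 1 library on the log2(cpm + 1) axis, coloured by strain, for protein-coding genes with the widest gaps above (left) and below (right) the nearest other strain. The genes were chosen for these gaps, so the 129S1/Svlmj libraries (red) sit apart from all 12 others in each gene. Trhde was at 39.9 to 41.6 cpm against 7.25 to 9.44 cpm, and Guca1b at 52.8 to 58.4 cpm against 122 to 161 cpm.

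Among the genes that were lower in 129S1/Svlmj was the photoreceptor gene Guca1b (chromosome 17, 47385393 to 47392967). It encodes guanylate cyclase-activating protein 2, a calcium sensor that turns on the synthesis of cyclic GMP in the outer segment when calcium falls in the light. Guca1b was at 52.8, 58.4 and 56.0 cpm in 129S1/Svlmj, and at 122, 138 and 161 cpm as the lowest, median and highest of the other libraries. No library of 129S1/Svlmj came near the others, and the mean was 0.402 times theirs. The log2 difference was -1.30 (SE 0.04, largest pairwise q = 3.17e-11), and the wild-derived strains had means of 137 to 145 cpm. Its neighbour Guca1a, which encodes the related sensor protein 1, was at 89.0, 95.7 and 84.4 cpm against 87.8, 94.7 and 109 cpm, which overlap, with q = 0.0293.

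Slc25a37 (chromosome 14, 69241848 to 69285112) encodes mitoferrin 1, which carries iron into mitochondria. It was at 3.48, 3.47 and 3.29 cpm in 129S1/Svlmj and at 8.65, 9.49 and 10.3 cpm as the lowest, median and highest elsewhere, with no overlap. The log2 difference was -1.25 (SE 0.05, largest pairwise q = 1.32e-10). Noct, the nocturnin gene, whose transcript cycles over the day in many tissues, stood at 5.43, 4.95 and 4.50 cpm against 10.6, 12.2 and 15 cpm. Its 3 libraries were again below all 12 others, with a log2 difference of -1.14 (SE 0.06, largest pairwise q = 2.07e-08). Of its 50-base stretches 31.3% also occur in other annotated genes, chiefly Gm42860.

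Heatr5a (chromosome 12, 51875871 to 51971321) was at 25.8, 27.4 and 27.9 cpm, while the 12 libraries of the others lay between 57 and 79.8 cpm. The ranges did not overlap, and the log2 difference was -1.26 (SE 0.03, largest pairwise q = 1.34e-12). Bub1b, a kinase of the mitotic checkpoint, was at 0.878, 0.747 and 0.782 cpm against 2.69, 3.57 and 9 cpm as the lowest, median and highest. C57BL/6J, with a mean of 7.47 cpm, was the highest of the other strains, and Bub1b was lowest in 129S1/Svlmj. Mcm6, a subunit of the helicase that replicates DNA, was at 0.374, 0.747 and 0.495 cpm against 1.65 to 2.56 cpm.

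Trpc6, a cation channel subunit, was at 1.76, 2.39 and 1.61 cpm against 4.58 to 5.74 cpm, and Zfp27, a zinc-finger protein, at 5.04, 5.37 and 6.02 cpm against 11.2 to 17.2 cpm. Ero1lb, an oxidase of the endoplasmic reticulum, was at 3.92, 3.79 and 3.76 cpm against 7.62 to 9.54 cpm. Cd59a, which blocks the membrane attack complex of complement, was at 1.97, 2.54 and 2.36 cpm against 4.90 to 9.33 cpm. In these 4 genes all 3 libraries of 129S1/Svlmj were below all 12 others. The log2 differences were -1.08 for Trpc6, -1.25 for Zfp27, -0.99 for Ero1lb and -1.16 for Cd59a, each with a largest pairwise q-value of at most 9.03e-07.

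For several of these genes the low level was not particular to 129S1/Svlmj once wild-derived strains were considered. Slc25a37 had means of 3.40, 4.14 and 4.27 cpm in CAST/EiJ, PWK/PhJ and WSB/EiJ, Trpc6 of 1.97, 1.83 and 1.62 cpm, and Ero1lb of 3.05, 1.78 and 3.82 cpm. All of these are below the libraries of the 4 other classical strains, and Ero1lb in CAST/EiJ and PWK/PhJ is also below the 129S1/Svlmj libraries. Noct had means of 4.81, 5.53 and 7.08 cpm in the same order, again below the 12 libraries. Cd59a was low in CAST/EiJ and PWK/PhJ (2.18 and 2.51 cpm) but not in WSB/EiJ (7.04 cpm). Heatr5a was low in CAST/EiJ and PWK/PhJ (20.5 and 20 cpm) but at 70.9 cpm in WSB/EiJ. Of the 416 genes set apart, 170 (40.9%) lay outside the range of all 9 wild-derived libraries too, 106 of the 206 higher and 64 of the 210 lower genes. The same share over all genes tested was not computed, so this count is not read as particular to 129S1/Svlmj.

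The gene lists were read against the background shares of 8.73% higher and 9.64% lower. Without the 3 libraries with the most lens RNA the background moved as well, to 1043 higher and 1817 lower of 15771 genes tested. A difference to the mean can rest on 1 of the 4 strains, and of the 121 named genes 28 no longer passed and 1 reversed without A/J, and 15 no longer passed without NZO/HlLtJ, 14 without NOD/ShiLtJ and 5 without C57BL/6J. Rod phototransduction had 3 of its 10 tested members lower and none higher, with a median difference of -0.08. The 3 were Cngb1, a subunit of the cation channel (132, 131 and 117 cpm against 135 to 196 cpm, log2 difference -0.38, q = 0.00158), Gngt1 and Gnat1, subunits of rod transducin. Cngb1 was below all 12 others in 129S1/Svlmj, while Gnat1 (1790, 1860 and 1750 cpm against 1700 to 2600 cpm) overlapped with them, and its difference of -0.20 turned to 0.10 with quantile normalization. Cngb1, Gngt1 and Gnat1 all failed to pass without 129S1/Svlmj replicate 3, with differences of -0.319, -0.209 and -0.183 in place of -0.375, -0.224 and -0.203. The difference of Gngt1 rested on NZO/HlLtJ, with -0.80 to that strain and -0.03 to the mean without it, and that of Gnat1 became -0.103 without C57BL/6J. Of 9 tested cone genes, Gngt2 was higher, though not without NOD/ShiLtJ (0.152 in place of 0.263), and Slc24a2 lower. Slc24a2 was nonetheless above NZO/HlLtJ, by 0.197 (q = 0.00291). The recovery and calcium feedback list had 3 of 11 lower, Guca1b, Rgs9 and Gucy2e, and Pdc higher. Pdc was below C57BL/6J and NZO/HlLtJ, and its difference to the mean of 0.296 became 0.00754 without A/J. Rgs9, which speeds the shutoff of transducin, was set apart at 112, 108 and 116 cpm against 128 to 166 cpm (log2 difference -0.38, largest pairwise q = 0.00433).

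Photoreceptor transcription factors had 4 of 11 tested members lower (Crx, Nr2e3, Otx2 and Thrb) and 2 higher (Rorb and Esrrb). Nr2e3, which represses cone genes in rods, was at 136, 120 and 112 cpm in 129S1/Svlmj and at 163, 187 and 211 cpm as the lowest, median and highest of the others. Thrb, the thyroid hormone receptor that sets cone opsin identity, stood at 21.1, 23.6 and 23.9 cpm against 28.5, 32.4 and 34.9 cpm. Both were set apart without overlap, with log2 differences of -0.59 (SE 0.06) and -0.46 (SE 0.04) and largest pairwise q-values of 7.02e-05 and 1.57e-04. Nrl, which acts upstream of Nr2e3, was at a mean of 336 cpm against 319 cpm and did not pass (q = 0.178). Rorb, at 151, 171 and 202 cpm, lay within the range of the other strains (88.1 to 208 cpm) and did not differ from C57BL/6J at the threshold.

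Outer segment disc and retinoid genes had 1 of 13 higher and 2 lower (Prom1 and Rbp3). The higher one was Impg2 (chromosome 16, 56204313 to 56273756), a proteoglycan of the matrix between the photoreceptors. It was at 272, 267 and 279 cpm in 129S1/Svlmj and at 163, 178 and 186 cpm as the lowest, median and highest of the others. No values overlapped, at 1.54 times the mean of the others and a log2 difference of 0.62 (SE 0.03, largest pairwise q = 3.25e-09). The wild-derived strains, with means of 300 to 316 cpm, were above 129S1/Svlmj. The photoreceptor ribbon synapse list had 4 of 15 lower (Cabp4, Unc13b, Cplx4 and Egflam) and Stx3 higher, with a median difference of -0.15. Stx3 did not pass without NOD/ShiLtJ or without A/J (0.109 and 0.108 in place of 0.219).

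Ionotropic transmitter receptors had the most members called by number, 16 of 35 tested higher and 1 lower (Chrna4), with a median difference of 0.12. As a share, their 48.6% was below that of photoreceptor transcription factors (54.5%), the inflammasome list (50%) and blood cells (75%). It was also below that of the beta protocadherins, a group chosen after its values were seen, with 14 of 21 higher and 1 lower. The 16 included glutamate receptor subunits (Gria1, Gria2, Gria4, Grik2, Grin2a, Grin2c and Grin3a), subunits of the receptors for GABA (Gabra2, Gabra4, Gabrb2, Gabrr2 and Gabrr3), the glycine receptor gene Glra3 and the nicotinic gene Chrna7. Gabra2 was at 16.8, 16.9 and 15.7 cpm against 7.30, 11.6 and 14 cpm as the lowest, median and highest, and Gria1 at 21.6, 25.1 and 24.1 cpm against 16.8, 18.1 and 21.0 cpm. Both were set apart without overlap, with log2 differences of 0.55 (SE 0.06) and 0.34 (SE 0.05). Grin3a, at 5.56, 4.91 and 5.08 cpm, was above all 12 others (1.19 to 4.68 cpm), but it was not set apart, since C57BL/6J and NZO/HlLtJ, with means of 4.40 and 4.11 cpm, were close to it. Of this list, 13 members were higher and none was lower without the 3 libraries with the most lens RNA, and Gabra2 and Gria1 were no longer set apart there. The amacrine and horizontal cell list had 4 of 22 higher (Gad1, Slc5a7, Pax6 and Slc17a8) and none lower, and the ganglion cell list 2 of 17 (Nefl and Uchl1). Uchl1 did not pass without the libraries with the most lens RNA (0.159 in place of 0.254) or without 129S1/Svlmj replicate 2 (0.127), and the difference of Nefl fell to 0.103 without A/J and did not pass.

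The ON bipolar list had 3 of 20 higher and 4 lower. Among the lower ones were Grm6, the glutamate receptor of these cells, Trpm1, its channel, and Gpr179, all of which overlapped with the other strains and none of which passed without NOD/ShiLtJ (-0.239, -0.0968 and -0.281 in place of -0.303, -0.135 and -0.344) or without 129S1/Svlmj replicate 1 (-0.294, -0.0808 and -0.328). Trpm1 and Gpr179 also failed without A/J (-0.127 and -0.272). Prkca, at 116, 127 and 120 cpm, was within the range of 56.0 to 149 cpm of the others, and its difference fell from 0.331 to 0.0872 without A/J. Of 7 tested dopamine genes, Slc18a2, the vesicular monoamine transporter, was set apart at 3.43, 3.41 and 2.97 cpm against 1.25 to 2.61 cpm (log2 difference 0.63, SE 0.06), Drd1 was higher and Drd2 lower. Drd2 did not pass without NOD/ShiLtJ, without A/J or without NZO/HlLtJ (-0.168, -0.161 and -0.150 in place of -0.209). Vip, the only neuropeptide set apart among 10 tested, was at 5.69, 6.11 and 5.86 cpm against 2.33, 3.47 and 4.56 cpm as the lowest, median and highest (log2 difference 0.66, SE 0.08, largest pairwise q = 0.00447). Without the 3 libraries with the most lens RNA, Vip passed against the mean but was not set apart. Cck and Cartpt, which were higher with all libraries, did not pass there (0.237 and 0.198 in place of 0.255 and 0.232). Of the 10 neuropeptides, 3 were higher with all libraries and 1 was lower, Pdyn (-0.363). Pdyn did not pass without A/J (-0.25), without 129S1/Svlmj replicate 1 (-0.278) or without replicate 3 (-0.343).

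DNA methylation and Polycomb genes had 7 of 24 tested members lower and none higher, with a median difference of -0.06. The 7 were Dnmt3a, a de novo DNA methyltransferase, Tet3, which oxidises methylcytosine, and the Polycomb genes Ezh2, Suz12, Jarid2, Cbx7 and Ring1. Dnmt3a was at 74.8, 87.0 and 84.7 cpm in 129S1/Svlmj, and 92.8, 103 and 116 cpm were the lowest, median and highest of the others. Dnmt3a did not overlap with them, at a log2 difference of -0.33 (SE 0.05). Suz12 was also set apart, at 42.2, 41.3 and 41.7 cpm against 44.6 to 51.9 cpm. Without the 3 libraries with the most lens RNA, 9 members of this list were lower and none was higher, but neither Dnmt3a nor Suz12 was set apart.

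The core clock list had 5 of 24 members higher and Arntl lower. Arntl, the activator also known as Bmal1, was at 30.4, 28.3 and 28.4 cpm against 32.2, 37.2 and 40.9 cpm, and Ciart, a repressor of the clock, was at 3.57, 3.43 and 3.46 cpm against 1.60, 2.34 and 2.62 cpm. Both were set apart without overlap, with log2 differences of -0.33 (SE 0.04) and 0.49 (SE 0.05), but Arntl was not set apart without the 3 libraries with the most lens RNA, and 11.9% of the 50-base stretches of Ciart occur in Gm9176. Per2, Per3, Rorb and Bhlhe40 were the other higher members, of which Bhlhe40 did not pass without those libraries (0.331 in place of 0.423), while Dbp (q = 0.356) and Nr1d1 (q = 0.279) did not pass. Immediate early genes had 3 of 12 higher, Fos, Nr4a1 and Dusp1. Fos was at 10.3, 6.89 and 8.08 cpm in 129S1/Svlmj and spread from 2.41 to 11.7 cpm in the others, which overlap. Fos no longer passed when any one of several libraries was left out, among them 129S1/Svlmj replicates 1 and 3. None of the 3 passed without 129S1/Svlmj replicate 1 (0.496 in place of 0.636 for Fos, 0.541 in place of 0.591 for Nr4a1 and 0.600 in place of 0.816 for Dusp1), and Nr4a1 also failed without A/J (0.445) and without the libraries with the most lens RNA, where its difference was 0.596 in place of 0.591.

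Immune lists were mixed. Il18, a cytokine that inflammasomes activate, was set apart at 2.81, 2.57 and 2.44 cpm against 0.784, 1.05 and 1.40 cpm as the lowest, median and highest (log2 difference 0.83, SE 0.06, largest pairwise q = 2.90e-06). It was one of 2 higher members of the 4 tested on the inflammasome and cell death list, with Bcl2. Of 16 tested interferon-stimulated genes, Xaf1 was set apart above the others (1.38, 1.40 and 1.36 cpm against 0.454 to 0.755 cpm) and Oasl2 below them (0.276, 0.354 and 0.351 cpm against 0.647 to 2.48 cpm). Neither overlapped with the other strains. Ifit2 and Ifit3 were higher and Stat2 lower, so members moved in both directions, and Ifit3 did not pass without A/J (0.308 in place of 0.516) or without NZO/HlLtJ (0.341). Of the 50-base stretches of Ifit3, 51.2% also occur in Ifit3b. Microglia and complement genes had 4 of 12 lower (Cx3cr1, P2ry12, C1qa and C4b) and 1 higher, and C4b, which shares 34.6% of its stretches with C4a, did not pass without A/J (-0.493 in place of -0.772). Of 12 tested genes of MHC class I and antigen processing, H2-K1 and H2-D1 were higher and Tapbp lower, and 9.63% and 12.8% of the 50-base stretches of H2-K1 and H2-D1 also occur in other genes. Without NZO/HlLtJ the difference of H2-K1 fell from 0.376 to 0.0901, and neither H2 gene passed. H2-D1 was at 0.269 there in place of 0.349, and also failed without A/J (0.232) and without 129S1/Svlmj replicate 2 (0.289).

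Of 36 tested orthologues of human refractive-error loci, 7 were higher, among them Zmat4 (21.5, 21.0 and 22.1 cpm against 16.8 to 19.5 cpm, without overlap), Kcnj2, Grm3 and Bmp3, and Chd7 was lower. Zmat4 was set apart with a log2 difference of 0.24 (SE 0.04), though not without the 3 libraries with the most lens RNA, and Bmp3 did not pass there (0.219 in place of 0.265). Retinoic acid genes had 2 of 13 higher, with Dhrs3 set apart at 26.6, 34.6 and 32.9 cpm against 22.6 to 26.2 cpm, and 2 lower, Rarb and Rxra. Neither of these passed with the mean log2(cpm + 1) value of the lens list or with that of Xist as a covariate. The differences barely moved (-0.295 and -0.308 in place of -0.306 for Rarb, -0.248 and -0.238 in place of -0.245 for Rxra). Both also failed without A/J (-0.304 and -0.217) and without 129S1/Svlmj replicate 1 (-0.181 and -0.237) or replicate 3 (-0.343 and -0.204). Dhrs3 was not set apart without the 3 libraries with the most lens RNA. In the BMP, TGF-beta and activin list the receptor gene Bmpr1a passed of 28 tested, at 45.2, 45.6 and 42.3 cpm against 52.9 to 60.6 cpm, and 4 members were lower without the 3 libraries with the most lens RNA. Extracellular matrix genes had 1 of 37 higher and 3 lower (Col1a1, Col2a1 and Bcan). The higher one, Fn1, did not pass without NZO/HlLtJ (0.218 in place of 0.408). The summed markers of sclera, iris and ciliary body, Col1a1 among them, were at 2.57, 5.22 and 2.86 cpm in 129S1/Svlmj. Without the 3 libraries with the most lens RNA, that sum lay between 3.29 and 8.69 cpm in the other strains. The part of these tissues in the matrix values was not tested. Vascular and hypoxia genes had 1 of 17 lower (Ndrg1). Glutathione and xenobiotic genes had 7 of 27 higher and Nnt lower, and 4 were higher without the libraries with the most lens RNA. Glycolysis genes had 3 of 21 higher and 5 lower. The lists for blood cells, for the ciliary body, iris and sclera and for pigment epithelium had 3 of 4, 2 of 11 and 3 of 14 members called, in both directions. None of the 20 lens genes passed, with a median difference of 1.3, and 13 of the 14 still tested were higher without the 3 libraries with the most lens RNA. Without those libraries 6 members of the recovery and calcium feedback list were lower in place of 3, 4 of the disc and retinoid list in place of 2, 5 of the ON bipolar and ribbon synapse lists each in place of 4, and 7 of the glycolysis list in place of 5. The clock list then had 3 higher and 2 lower, the refractive-error list 5 and 1, and the retinoic acid list 1 and 3. Over all genes tested, lower calls rose there from 1524 to 1817 and higher calls fell from 1380 to 1043. What part of the changes in the lists follows that shift was not tested. With the mean log2(cpm + 1) value of the lens list as a covariate, 344 of the 416 genes set apart kept their call.

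**Figure D2:**
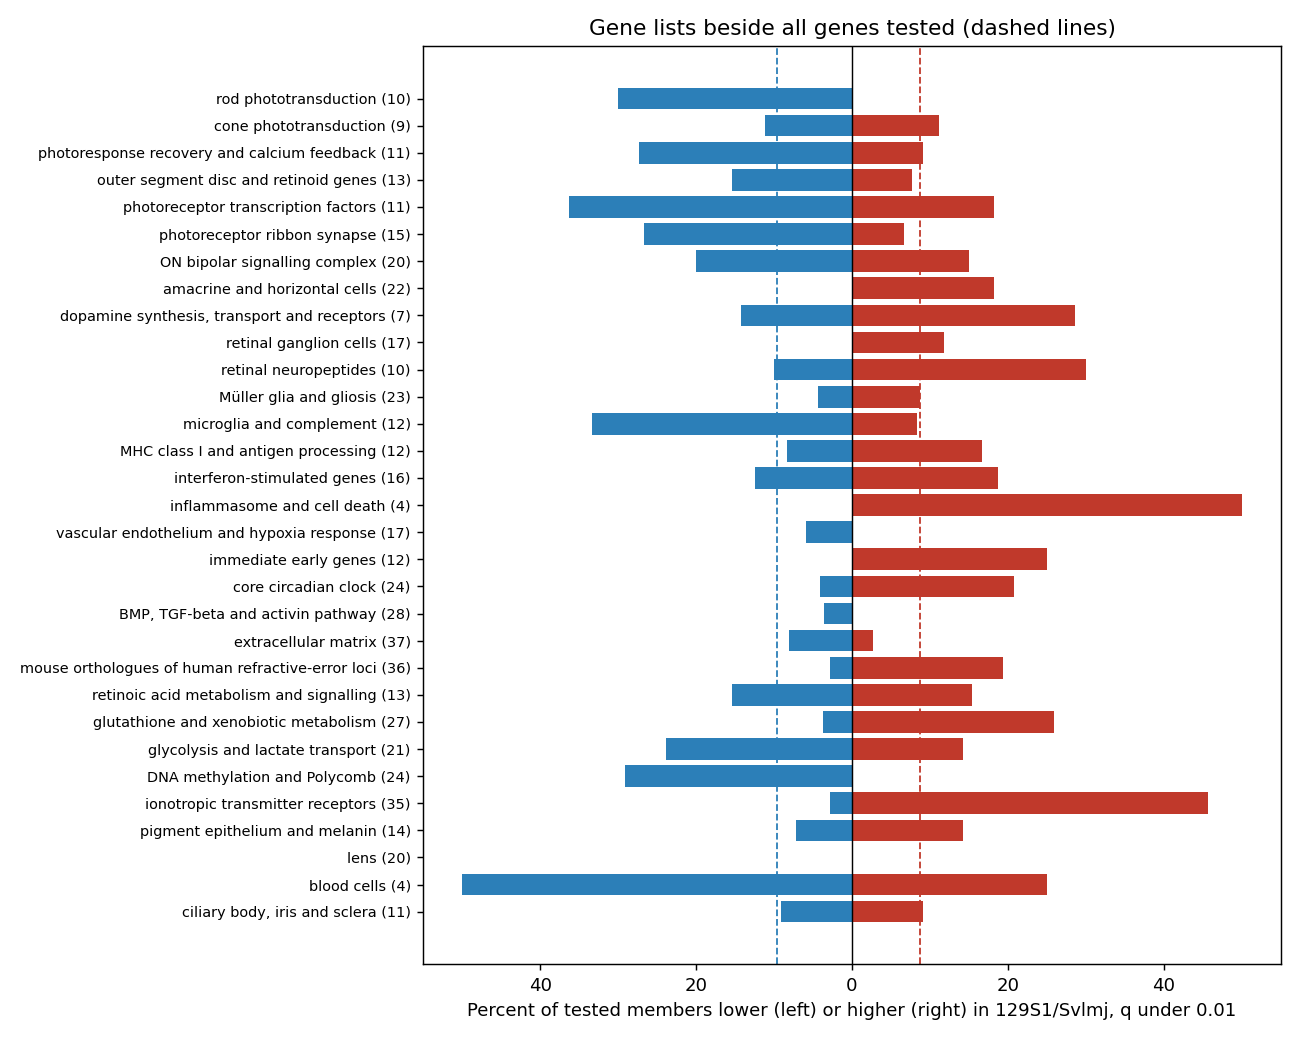
Bars give the percent of tested members (number in brackets) of each gene list that were lower (left, blue) or higher (right, red) in 129S1/Svlmj than the mean of the 4 other strains at q under 0.01, and dashed lines give the shares over all genes tested, 9.64% and 8.73%. Ionotropic transmitter receptors reach farthest to the right among the lists shown of more than 4 genes, with 16 of 35 members higher. DNA methylation and Polycomb genes extend to the left only, with 7 of 24. So do rod phototransduction (3 of 10), the vascular and hypoxia list (1 of 17) and the BMP, TGF-beta and activin list (1 of 28).

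Genes set apart lay on all autosomes, from 0.810% of the tested genes of chromosome 19 to 6.55% of those of chromosome 18, against 2.63% of all genes tested. When genes less than 1 Mb apart were joined, 244 of the 416 (58.7%) had at least 1 such neighbour, and 34 groups held 3 or more. No such share was computed for other sets of tested genes, and tested genes are spread unevenly, so whether this exceeds a background was not tested. The groups named here were chosen after their values were seen. At the start of chromosome 8, between 3500457 and 4275913, all 9 genes set apart of 19 tested were lower, among them Timm44 of the mitochondrial import machinery (10.3, 11.8 and 10.3 cpm against 20.6 to 31.3 cpm), Ctxn1 (0.553, 0.616 and 0.607 cpm against 2.03 to 3.51 cpm) and Tgfbr3l. Timm44 and Ctxn1 were low in CAST/EiJ and PWK/PhJ as well, with means of 13 and 14.6 cpm and of 0.635 and 0.481 cpm. Tgfbr3l shares 52.2% and Map2k7 35.2% of its exon bases with Gm49320 on the same strand. Gm49320 is covered over 100% of its exon bases by Tgfbr3l and Map2k7. Gm49320 and Map2k7 are also among the 9 lower genes, and the reads of these overlapping genes cannot be told apart with certainty. On chromosome 2, between 118528757 and 120245335, 7 genes of 32 tested were set apart lower, with Bub1b and Pla2g4b among them, and 2 higher. Pla2g4b overlaps with Gm28042 over 66.5% of its exon bases, and Jmjd7 does so over 66.7%, on the same strand. Gm28042 and Jmjd7 are also among the 7 lower genes, and the reads of these overlapping genes cannot be told apart with certainty. On chromosome 9, Pts and Sik2 were lower, and Il18 and Ppp2r1b higher, within 50521617 to 51009073, where 14 genes were tested.

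**Figure D3:**
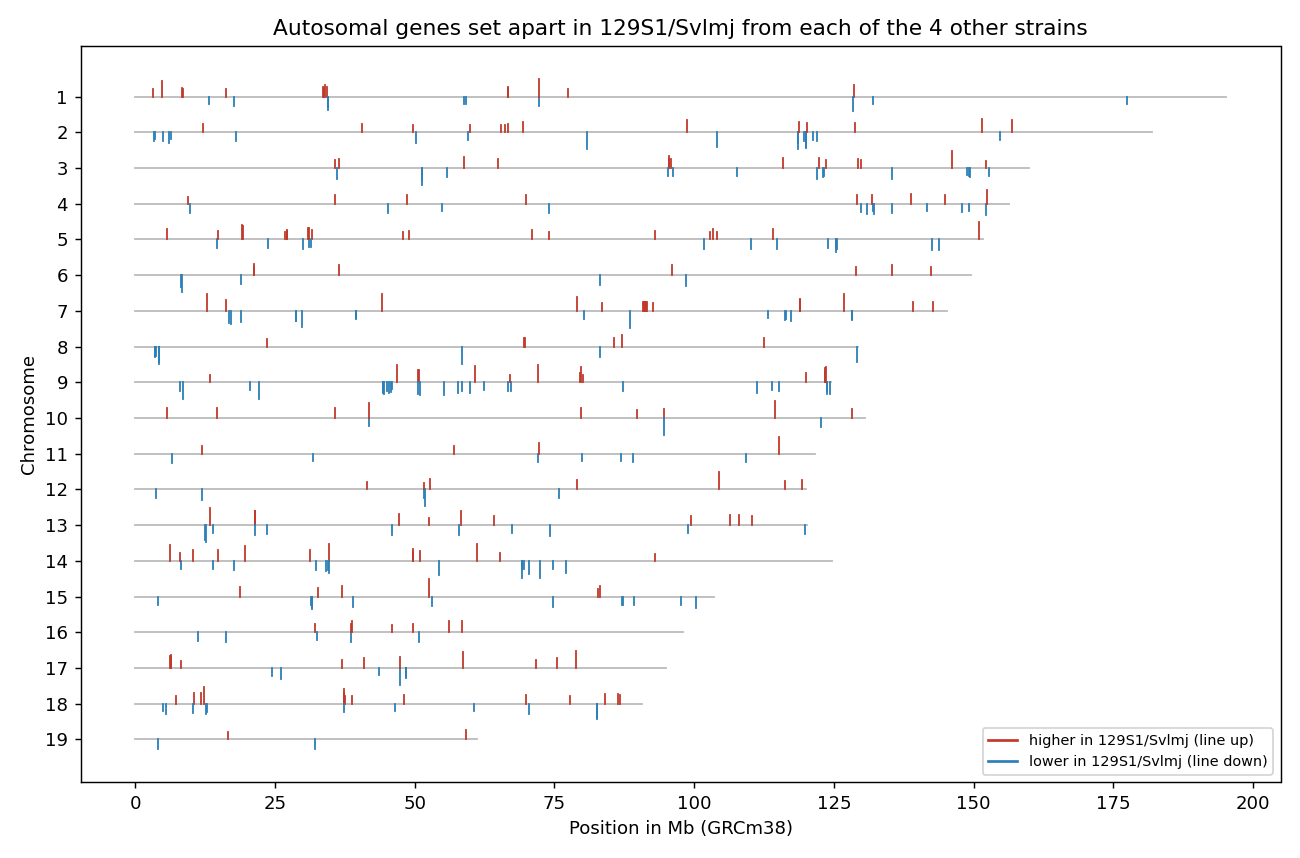
Each vertical line is 1 of the 416 genes set apart, placed by its start in Mb on the autosome (GRCm38, grey line drawn to the last tested gene), upward and red if higher and downward and blue if lower in 129S1/Svlmj, with a length that grows with the gap up to a limit. On chromosome 8 the 9 genes near the start all point down, and on chromosome 9 there are 14 upward and 27 downward lines.

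The beta protocadherins, adhesion molecules encoded side by side on chromosome 18, are named for the same reason. Of 21 tested, 14 were higher in 129S1/Svlmj and Pcdhb9 was lower, and 7 were set apart above the others, as Pcdhb9 was below them. Without the 3 libraries with the most lens RNA, 13 were higher and 1 lower, and 6 were set apart above and none below. The widest gap was that of Pcdhb6, at 9.34, 9.90 and 9.79 cpm against 3.17, 4.11 and 4.90 cpm as the lowest, median and highest, with a log2 difference of 1.08 (SE 0.05). The members from Pcdhb16 to Pcdhb21 did not pass, for example Pcdhb21 with a difference of 0.01. With median-ratio scaling and with quantile normalization 14 were higher and 1 lower, with 8 set apart above and none below. These genes resemble each other, and Pcdhb6 shares 7.54% of its 50-base stretches with other genes.

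Some of the widest gaps belonged to pairs of near-identical sequences. Gpr137b, a lysosomal membrane protein, was at 9.54, 13.9 and 10.3 cpm in 129S1/Svlmj against 3.20, 3.90 and 5.11 cpm as the lowest, median and highest of the 12 others, and had means of 18.5, 11.1 and 10.7 cpm in CAST/EiJ, PWK/PhJ and WSB/EiJ. The pseudogene Gpr137b-ps on the same chromosome was at 0.458, 0.690 and 0.431 cpm against 4.17, 4.64 and 5.76 cpm. One was higher and the other lower in all 3 libraries, with log2 differences of 1.30 and -1.90, and 28.5% of the 50-base stretches of Gpr137b occur in other genes, nearly all in Gpr137b-ps. Gm4735, a processed pseudogene of which 96.0% occurs elsewhere, chiefly in Eno1b, was at 2.13, 3.58 and 2.60 cpm against 75.0, 96.2 and 143 cpm. Rps13-ps2, identical over its whole length to parts of Rps13, was at no more than 0.0722 cpm in 129S1/Svlmj and at 3.25 to 5.39 cpm elsewhere, while Rps13 itself was at 2.72 to 3.01 cpm and did not pass (q = 0.190). The values of such genes depend on how reads were divided between copies and are uncertain. Among the small nuclear RNAs, Gm25360 was at 65.9, 56.0 and 67.2 cpm in 129S1/Svlmj and at most 1.94 cpm in the others. Of its 50-base stretches 38% also occur in other genes. Its neighbour Gm23472, of which 100% occurs elsewhere, was set apart below the others, so both values are uncertain in the same way.

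Calls of single genes were also lost when 1 library was left out, and a lost call did not always go with a smaller difference. Of the 121 named genes, 29 no longer passed against the mean without 129S1/Svlmj replicate 1, 17 without replicate 2 and 29 without replicate 3. Of the genes named from the lists, Rbp3, Cabp4, Egflam, Gngt1, Gnat1, Grm6, Gpr179, Drd2, Pdyn, Stat3, Fos, Nr4a1, Rarb, Rxra, Ring1 and Tet3 failed both without replicate 1 and without replicate 3, and Col1a1 and Fn1 without any of the 3. P2ry12, Trpm1, Bhlhe40 and Cck failed without replicate 1 and without replicate 2, and Chrna4, Uchl1 and Cartpt without replicate 2 and without replicate 3. Pax6, Dusp1 and Cx3cr1 failed only without replicate 1, Kcnj10, Nefl, Bmp3 and H2-D1 only without replicate 2, and Cngb1 and Gucy2e only without replicate 3, when the libraries of 129S1/Svlmj were left out in turn. Without replicate 1 the difference of Rarb fell from -0.306 to -0.181 and that of Pax6 from 0.236 to 0.156, while that of Rbp3 was -0.232 in place of -0.234, that of Fn1 0.398 in place of 0.408 and that of Col1a1 -0.653 in place of -0.597. Without replicate 3 it was 0.655 in place of 0.636 for Fos and 0.610 in place of 0.591 for Nr4a1. Without A/J, Rbp3 (-0.195), Egflam (-0.201 in place of -0.223), Stat3 (-0.169 in place of -0.228), Cx3cr1 (-0.207 in place of -0.291), P2ry12 (-0.208 in place of -0.283), Chrna4 (-0.337 in place of -0.405), Col1a1 (-0.553), Uchl1 (0.221 in place of 0.254), Cck (0.226 in place of 0.255), Cartpt (0.173 in place of 0.232) and Fos (0.472) were also among those that did not pass. Klk1b22 fell below the filter, and was not tested, without 129S1/Svlmj replicate 2 and without replicate 3.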

How the data were processed

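RNA of 24 retinas was sequenced after ribosomal RNA was depleted. Per the study's methods, reads were trimmed, aligned with STAR to GRCm38/mm10, a genome of C57BL/6J, and assigned to transcripts by expectation maximization in Partek Flow. The deposited values are cpm of all reads in a library, to which the authors added 0.0001. The strand used in counting is not stated. Between 89.6% and 91.4% of values from 0.3 to 10 reads were whole to within 0.05 reads, so no count model was used. Coordinates are the table's, with 1 taken from the end. The methods name RefSeq as the annotation, while of 28007 symbols found in GENCODE M21, 99.1% matched its positions.

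The log2(cpm + 1) values were fitted with limma 3.58.1 in R 4.3.3, with a mean per strain and a variance trend, and Storey q-values under 0.01 were called. The limit of 0.5 cpm on the mean equals 29.7 to 39.1 reads. Members and lists were chosen with earlier results of these data known. Named genes were the 14 protein-coding genes per direction with the widest gap to the nearest strain mean among those set apart also without the 3 libraries richest in lens RNA, and up to 4 called members per list. Not every gene that meets this rule is shown. Other genes were added after their values were seen.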

Additional observations from a re-analysis of the deposited data

How the results depend on the processing

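With a mean of at least 5 cpm, which tests fewer genes, 1825 genes differed from the mean of the 4 strains, 264 were set apart, 1284 differed from C57BL/6J and 1317 from NZO/HlLtJ. At q under 0.05 these counts were 5018, 786, 3647 and 3800, with 4758 against NOD/ShiLtJ and 5574 against A/J. Without C57BL/6J, with 3 comparisons to pass in place of 4, 674 genes were set apart. As 2 groups, 512 differed from the mean, and 9 did with 1 value per strain. Leaving out 1 library at a time gave 1836 to 2984 genes against the mean, the lowest without 129S1/Svlmj replicate 3, and the cause was not tested. Under the other alternatives these counts stayed within 1.5 times. Of the 121 named genes, Gnat1 reversed with quantile normalization (0.104) and Opcml without A/J (-0.00749), and the cause was not tested. With 1 value per strain 117 of the 121 no longer passed, and 75 as 2 groups. Values near 0.05 cpm rest on about 3 reads, which limits what can be said of genes near 0.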

Other observations

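On chromosome X, which was left out of the comparison, 526 genes were above the limit on the mean, and the same rule set apart 4 of them (0.760%), all higher in 129S1/Svlmj. Lancl3 was at 3.69, 3.77 and 3.74 cpm in 129S1/Svlmj and at 1.20 to 1.70 cpm in the other 12 libraries. The others were Xk, Lonrf3 and Usp51.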
